A study of Mus musculus with 2 samples.

Results

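Prostaglandin synthesis enzymes and receptors were followed in cultured mouse cardiac myofibroblasts after knockdown of *Vgll3*. The 10 genes were picked by symbol, as members of the pathway, from the 24532 genes of the count table. The rule uses no measured value, but the list was drawn up with earlier results of these data known. They comprise 6 enzymes (*Ptgs1*, *Ptgs2*, *Ptges*, *Ptges2*, *Ptges3* and *Ptgis*) and 4 receptors (*Ptger1*, *Ptger2*, *Ptger4* and *Ptgfr*). Myofibroblasts are the contractile, matrix-producing cells of a healing wound. Both cultures held CD45-negative cells of C57BL/6 mouse hearts (the strain as labelled, which the methods give as C57BL/6J for isolated myofibroblasts), isolated 3 days after myocardial infarction (MI) and grown in medium with serum. One culture received a control siRNA (siCtrl) and the other an siRNA against *Vgll3* (si*Vgll3*), each at 12.5 nM for 72 h. The knockdown was transient and made with a single siRNA. Each condition has 1 library, so the differences could not be checked against replicates and carry no p-value.

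Prostaglandins are short-lived lipid signals made from arachidonic acid, a fatty acid that phospholipases cut from membranes. The cyclooxygenases COX-1 (*Ptgs1*, usually constitutive) and COX-2 (*Ptgs2*, usually induced by cytokines and growth factors) convert it to the shared intermediate PGH2. Terminal synthases then turn PGH2 into PGE2, prostacyclin and the other prostanoids, which leave the cell and act through receptors on the same or neighbouring cells. In fibroblasts, PGE2 is known to act against matrix production, mainly through receptors that raise cAMP.

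The level of each gene is its TPM, a value that the authors scaled for transcript length and library size and that can be compared between genes. M is log2 of the si*Vgll3* TPM divided by the siCtrl TPM, and A is log2 of the mean TPM of both libraries. The study called genes lower at M < -0.5 with A > 0. Here the same rule was used with A as defined above, and its mirror image, M > 0.5 with A > 0, for genes called higher. Brackets hold the 95% Clopper-Pearson interval of the read ratio, shifted onto M. It covers counting error only and compares 2 libraries, not 2 conditions. The libraries held 140815237 (siCtrl) and 125789276 (si*Vgll3*) reads on genes. *Vgll3* itself went from 202 to 84.0 TPM, which left 41.6% of the siCtrl level.

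Of the 10 genes, 8 had A > 0. Both cyclooxygenases were called higher in si*Vgll3*, only *Ptger1* was called lower, and 5 genes lay between the thresholds. Across all 11754 genes with A > 0, 5.73% were called higher and 11.4% lower. The 8 genes had a median M of 0.10, against -0.05 for all genes with A > 0, so the list as a whole was little displaced while the cyclooxygenases stood far from its other members. The plot of TPM by gene shows this spread.

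**Figure D1:**
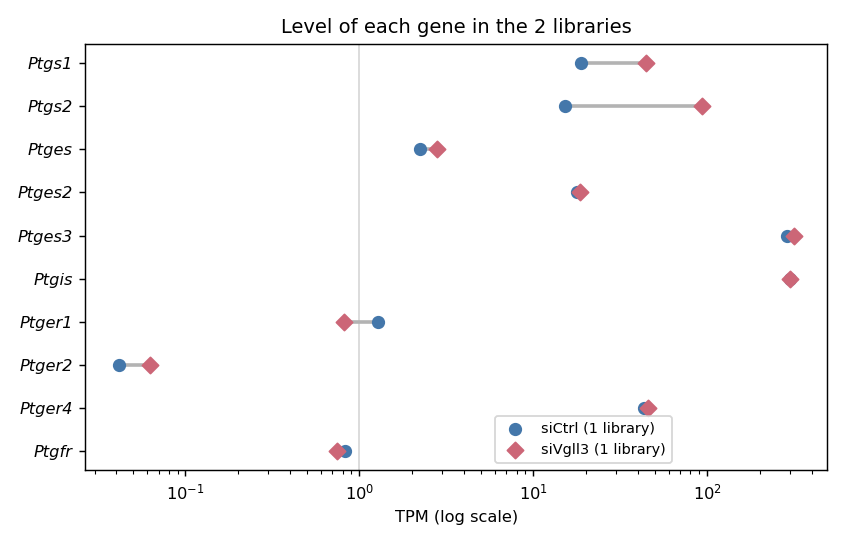
TPM of each of the 10 genes (log axis) in the siCtrl library (circles) and the siVgll3 library (diamonds), joined by a line. *Ptgs2* moved from 15.3 to 93.4 TPM and *Ptgs1* from 18.8 to 44.1 TPM, while the markers of *Ptgis*, *Ptges3*, *Ptges2* and *Ptger4* nearly coincide.

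*Ptgs2* (NCBI gene 19225) encodes the inducible cyclooxygenase and spans bases 150100031 to 150108234 of chromosome 1 (mm10). Reads on the gene numbered 4347 under siCtrl and 24620 under si*Vgll3*. The level moved from 15.3 to 93.4 TPM, a 6.12-fold higher level [5.93, 6.32] and an M of 2.61 [2.57, 2.66]. This was the 14th highest M of the 11754 genes. Among the 1691 genes whose A lay within 0.5 of that of *Ptgs2*, no other gene had an M as high, and the central 95% of them ran from -0.75 to 0.57.

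*Ptgs1* (NCBI gene 19224, chromosome 2 from 36216742 to 36258593) encodes the constitutive cyclooxygenase. It was covered by 3438 siCtrl and 7470 si*Vgll3* reads. The level moved from 18.8 to 44.1 TPM, 2.35-fold higher [2.26, 2.45], with an M of 1.23 [1.17, 1.29] that ranked 131st. Of the 2072 genes within 0.5 of its A, 9 including itself had an M at least as high. Thus both enzymes of the committed step were higher, the inducible one by more. The gap between them, taken as the change in the ratio of their reads, was 1.38 on the log2 scale [1.31, 1.46] and does not depend on how the libraries are scaled.

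The balance of the pair changed with it. In siCtrl, *Ptgs2* stood at 0.813 times the TPM of *Ptgs1* and made up 44.8% of cyclooxygenase TPM. In si*Vgll3* it stood at 2.12 times and made up 67.9%. Counted as raw reads, which favour the longer *Ptgs2* mRNA, the share was 55.8% [54.7, 56.9] in siCtrl and 76.7% [76.3, 77.2] in si*Vgll3*. So *Ptgs2* was the minor form per transcript in siCtrl and the major one in si*Vgll3*, and the order in siCtrl depended on the length scaling. Summed, cyclooxygenase TPM moved from 34.0 to 138, 4.04-fold higher.

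To show how the cyclooxygenase genes differ in sequence, their RefSeq promoters (GRCm38.p6, 250 bases before the annotated start and 30 after it, both on the plus strand) are given 5′ to 3′, for *Ptgs2* at chr1:150099781-150100060 and for *Ptgs1* at chr2:36230176-36230455. The *Ptgs1* window lies inside the gene span given above, so its annotated start is not the first base of that span. Capitals mark the only matches found to the motifs searched, a cAMP response element core (TGACG, here on the minus strand) and the E-box (CACGTG) that overlaps it. Both matches lie after the annotated start of *Ptgs2*, with first bases at positions 14 and 17.
Ptgs2: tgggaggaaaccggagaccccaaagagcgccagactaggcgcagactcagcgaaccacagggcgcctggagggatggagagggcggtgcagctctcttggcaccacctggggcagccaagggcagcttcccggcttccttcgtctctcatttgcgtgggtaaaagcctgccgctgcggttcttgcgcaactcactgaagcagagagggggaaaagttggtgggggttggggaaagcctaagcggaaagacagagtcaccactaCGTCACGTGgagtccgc
Ptgs1: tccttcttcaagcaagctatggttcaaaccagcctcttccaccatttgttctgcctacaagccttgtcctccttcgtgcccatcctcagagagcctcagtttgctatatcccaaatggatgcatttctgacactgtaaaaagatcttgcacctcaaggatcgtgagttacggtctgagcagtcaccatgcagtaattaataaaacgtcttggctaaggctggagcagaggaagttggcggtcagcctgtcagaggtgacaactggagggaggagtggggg

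Motifs were searched on both strands of the promoter windows (250 bases before and 50 after the start), which were found for 8 of the 10 genes and not for *Ptgis* and *Ptger1*. The cAMP response element core was in *Ptgs2* and *Ptges3*, against 20.8% of the 32851 promoters of the table, and the E-box was in *Ptgs2* and *Ptges2*, against 7.15%. The TEAD motif GGAATG, the letters bound by the partners of VGLL proteins, was in *Ptges* and *Ptges2* and in 14.7% of all promoters. An NF-kB-like motif (GGGNNTTTC) was in *Ptger4* and in 4.36% of all promoters. The *Ptgs1*, *Ptger2* and *Ptgfr* windows held none of the 4 motifs. These matches describe the letters of the windows, and binding to them was not tested.

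The mRNAs of the pair also differ after the stop codon. The 3′ UTR of *Ptgs2* (2445 bases in GENCODE vM21) holds 14 copies of ATTTA, the core of the AU-rich elements through which unstable mRNAs are bound by decay factors, and that of *Ptgs1* (921 bases) holds 0. Only 264 of 11074 genes with A > 0 and a 3′ UTR have as many as *Ptgs2*, whose density was 5.73 per kb against a median of 1.31. The densest stretch of 30 bases lies shortly after the stop codon at chr1:150105794-150105823, plus strand, with its 4 copies in capitals, of which 3 overlap.
Ptgs2 AU-rich stretch: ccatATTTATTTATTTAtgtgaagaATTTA

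*Ptgfr* also has 14 copies in a longer 3′ UTR (5122 bases), *Ptger2* has 6, *Ptger4* 5, and *Ptges2* and *Ptges3* 4 each, while *Ptges*, *Ptgis* and *Ptger1* have 0. The called genes were thus found at both ends of this count. Proteins that bind such elements, from a list of 12, all lay between the thresholds (M from -0.28 to 0.24). *Zfp36l1*, which destabilises AU-rich mRNAs, stood at 175 and 151 TPM, and *Rbm3*, a cold-inducible RNA-binding protein, at 931 and 1037 TPM.

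The 4 terminal synthases of the list were measured next, and all lay between the thresholds, with M from -0.01 to 0.32. *Ptgis* (NCBI gene 19223, chromosome 2 from 167203194 to 167252150) makes prostacyclin, and was the most abundant of the 10 genes in siCtrl. Its level was 299 TPM with siCtrl and 297 TPM with si*Vgll3*, from 33391 and 30699 reads, and its M was -0.01 [-0.03, 0.01]. The most abundant enzyme of the list was thus nearly level between the libraries.

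*Ptges3* (NCBI gene 56351) encodes p23, a co-chaperone of HSP90 that is also described as the cytosolic PGE synthase. It stood at 288 TPM with siCtrl and 314 TPM with si*Vgll3*, for an M of 0.12 [0.10, 0.15]. The interval lies above 0, by an amount far from the threshold. Among 14 other genes of the HSP90 system, only the stress-inducible *Hsp90aa1* was called higher, at 453 and 668 TPM (M = 0.56 [0.55, 0.57]). Its constitutive relative *Hsp90ab1* was at 1820 and 1768 TPM, the chaperone *Hspa8* was at 2295 and 2523 TPM, and the list had a median M of 0.12.

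The membrane-bound PGE synthases were less abundant. *Ptges* (NCBI gene 64292) encodes mPGES-1, the synthase usually induced together with COX-2. It was covered by 518 siCtrl and 600 si*Vgll3* reads, or 2.22 and 2.78 TPM, for an M of 0.32 [0.15, 0.50]. This was the highest M of the synthases, and its interval ends next to the threshold. *Ptges2* (NCBI gene 96979), the membrane-associated form that is usually constitutive, stood at 17.8 and 18.5 TPM, for an M of 0.05 [-0.03, 0.14]. The relation of *Ptgs2* to its usual partner shifted accordingly, from 6.87 to 33.6 times the TPM of *Ptges*. Relative to *Ptges*, the read ratio of *Ptgs2* was higher by 2.29 on the log2 scale [2.11, 2.47]. The plot of M by gene sets the 2 cyclooxygenases against these 4 synthases.

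**Figure D2:**
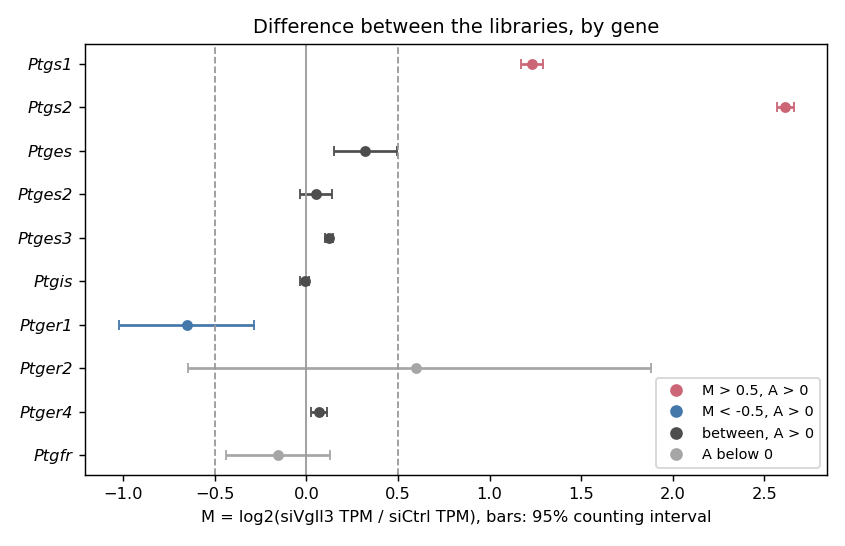
M of each gene (horizontal axis, log2) with its 95% counting interval. Dashed lines mark the thresholds of -0.5 and 0.5, and colours mark the call. *Ptgs2* (2.61) and *Ptgs1* (1.23) lie to the right of 0.5 with their whole intervals, the synthases lie between the lines, and the interval of *Ptger1* (-0.65) crosses the line at -0.5.

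The receptors are G protein-coupled. EP2 (*Ptger2*) and EP4 (*Ptger4*) raise cAMP, whereas EP1 (*Ptger1*) and the PGF2α receptor FP (*Ptgfr*) act through calcium. *Ptger4* (NCBI gene 19219, chromosome 15 from 5233399 to 5244187) was by far the most abundant. It was covered by 9137 siCtrl and 8859 si*Vgll3* reads, or 43.4 and 45.5 TPM, for an M of 0.07 [0.03, 0.11]. In GENCODE vM21, *Ptger4* shares 11676 bases with *Ttc33* on the opposite strand, which was at 28.1 and 29.7 TPM with an M of 0.08. The part of *Ttc33* reads in the *Ptger4* level was not tested, since the sources do not say that strand was used in counting. As listed, *Ptger4* made up 95.3% of the TPM of the 4 receptors in siCtrl and 96.6% in si*Vgll3*. The other cAMP-raising receptor was barely detected, since *Ptger2* drew 11 siCtrl and 14 si*Vgll3* reads. That is 0.042 and 0.063 TPM, and the interval of its M of 0.60 ran from -0.65 to 1.88, so a difference was not detectable at this depth.

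*Ptger1* (NCBI gene 19216, chromosome 8 from 83666644 to 83672756) was the only one of the 10 genes called lower. It drew 170 siCtrl and 100 si*Vgll3* reads, or 1.27 and 0.811 TPM, for an M of -0.65 [-1.02, -0.29]. Its A of 0.06 was just inside the filter, while *Ptgfr*, with an A of -0.36, was just outside it. Although the libraries were made with a stranded kit, reads of genes that overlap on opposite strands may not have been separated here either, and the part of such reads in the *Ptger1* value was not tested. *Ptgfr* (NCBI gene 19220) drew 232 siCtrl and 193 si*Vgll3* reads, or 0.822 and 0.739 TPM, with an M of -0.15 [-0.44, 0.13].

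The order of levels among the 10 genes changed mainly through *Ptgs2*. In siCtrl the order by TPM was *Ptgis*, *Ptges3*, *Ptger4*, *Ptgs1*, *Ptges2*, *Ptgs2*, *Ptges*, *Ptger1*, *Ptgfr* and *Ptger2*. In si*Vgll3*, *Ptgs2* was the third, ahead of *Ptger4* and *Ptgs1*, and *Ptges3* and *Ptgis* had changed places. With 1 library per condition there is no spread between samples against which neighbours in these orders could be compared. The MA plot places the 10 genes among all others.

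**Figure D3:**
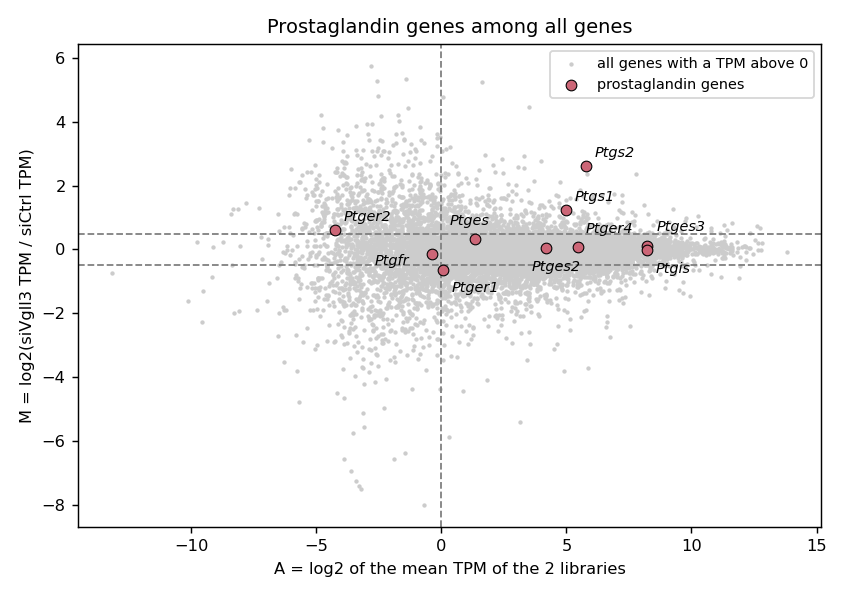
M (vertical) against A (horizontal), both log2, for all genes with a TPM above 0 in both libraries (grey) and the 10 prostaglandin genes (coloured, labelled). Dashed lines mark M of -0.5 and 0.5 and A of 0. *Ptgs2* lies above the cloud of genes of like abundance and *Ptgs1* at its upper edge, whereas *Ptges2*, *Ptges3*, *Ptgis* and *Ptger4* lie within it near 0.

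MicroRNA-29b, which the study follows as a regulator of collagen mRNAs, and its relatives share the seed shown in capitals (bases 2 to 8, RefSeq). The complement of the seed, TGGTGCT, was in the 3′ UTR of *Ptger1* and, in a stretch past the RefSeq end of the gene, of *Ptges2*, and in 14.5% of the 11074 3′ UTRs. Neither cyclooxygenase holds it. The *Ptger1* match lies at chr8:83672124-83672153, plus strand. Of the genes with a match, *Ptger1* was called lower and *Ptges2* (M = 0.05) was not, and an effect of the microRNA was not tested. MicroRNA levels were not measured in these libraries. By a separate PCR assay, the paper reports a higher miR-29b level in its myofibroblasts after knockdown of *Vgll3*.
mmu-miR-29b-3p: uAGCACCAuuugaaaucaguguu
Ptger1 match: gcaggaggggcaTGGTGCTgggatagactc

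The steps around the 10 genes were read from 10 further lists of 148 genes in all, of which 112 had A > 0. In these lists 14 genes were called higher and 10 lower, and their median M was -0.02. Over all genes with A > 0, 5.73% were called higher and 11.4% lower, and each list count stands beside these shares. The lists were chosen with earlier results of these data known, so their counts are no test of a pathway. The plot of these lists gives the genes with A > 0.

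In the arachidonate release list, 1 of 13 measured genes was called higher, *Pla2g4a*, the cytosolic phospholipase A2 that supplies cyclooxygenase. It was covered by 7035 siCtrl and 12855 si*Vgll3* reads, or 38.6 and 76.2 TPM, for an M of 0.98 [0.94, 1.02]. On the other side, 2 genes of the list were called lower. *Fads1*, a desaturase of arachidonate synthesis, was at 243 and 132 TPM (M = -0.88 [-0.90, -0.86]), and *Acsl4*, which loads arachidonate onto coenzyme A, at 81.7 and 49.5 TPM (M = -0.72 [-0.75, -0.69]). The desaturase *Fads2* was at 358 and 255 TPM, an M of -0.49 just inside the threshold.

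Transport and breakdown of prostaglandins had 2 of 9 genes called higher and 0 called lower. *Slco2a1*, the transporter that takes prostaglandins up into cells, was covered by 4465 siCtrl and 12656 si*Vgll3* reads, or 17.3 and 53.1 TPM. Its M of 1.61 [1.57, 1.66] was the highest of the 9 genes with A > 0. *Slco4a1*, an organic anion transporter of the same list, had an A of -0.18 and a larger M of 3.62 [3.05, 4.24], from 27 and 298 reads, and was named after its values were seen. Without a filter on A, 3 genes of this list were higher and 0 lower, against 1 and 4 of the arachidonate list. The shares over all genes were then 10.1% higher and 14.9% lower. *Hpgd*, the dehydrogenase that inactivates prostaglandins after uptake, stood at 0.894 and 1.43 TPM with 99 and 146 reads, an M of 0.68 [0.30, 1.06]. *Cbr3*, a carbonyl reductase among the most abundant of the list, lay between the thresholds at 43.3 and 47.7 TPM. Thus the phospholipase, both cyclooxygenases and the uptake transporter were called higher, *Fads1* and *Acsl4* lower, and the 4 synthases of the 10 genes neither. The median M was -0.14 for the arachidonate list and 0.06 for the transport and breakdown list.

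Of the other terminal synthases, *Ptgds*, *Hpgds* and *Tbxas1*, which make prostaglandin D2 and thromboxane, had 0 reads in both libraries, which allows up to 3 reads each. Of the aldo-keto reductases in this list, *Akr1b8* was at 182 and 164 TPM and *Akr1b10* was called higher, from 2137 to 2869 reads (M = 0.54 [0.46, 0.62]). *Akr1b3* was at 1.77 and 1.45 TPM (M = -0.29 [-0.64, 0.06]). The activity of these reductases on PGH2 was not tested. *Fam213b*, a prostamide and PGF synthase, was lower at 28.2 and 18.7 TPM (M = -0.59 [-0.71, -0.47]). *Cbr1*, a carbonyl reductase of PGE2, was at 44.0 and 35.7 TPM.

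In the list of other receptor genes, all 3 with A > 0 were called lower on the TPM scale, and 2 of 3 on scales made from the counts, where *Ptgfrn* was not. *Tbxa2r*, the thromboxane receptor, drew 1013 siCtrl and 230 si*Vgll3* reads, or 8.71 and 2.11 TPM, for an M of -2.05 [-2.26, -1.84]. *Ptgir*, the prostacyclin receptor, had 1471 and 917 reads, or 6.91 and 4.65 TPM, an M of -0.57 [-0.69, -0.45]. *Ptgfrn*, a membrane protein known to inhibit FP, was at 89.2 and 62.2 TPM (M = -0.52 [-0.55, -0.50]). *Ptger3* had 2 and 0 reads, *Ptgdr2* 11 and 0, and *Ptgdr* 0 in both, and none of these is listed with a TPM. Over all 9 prostanoid receptors, *Ptger4* made up 71.0% of TPM in siCtrl and 84.5% in si*Vgll3*, *Ptgir* 11.3% and 8.63%, and *Tbxa2r* 14.2% and 3.91%. Their TPM summed to 61.2 with siCtrl and 53.9 with si*Vgll3*.

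**Figure D4:**
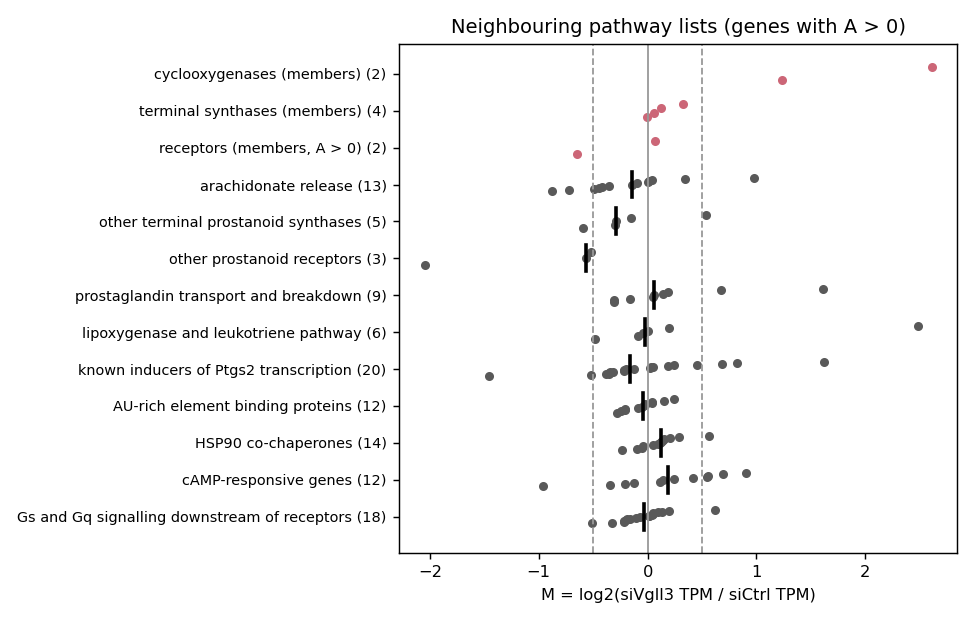
M (horizontal axis, log2) of the members by role (coloured) and of genes with A > 0 in the neighbouring lists (grey points, median as a black bar), with the number of genes in parentheses. Dashed lines mark -0.5 and 0.5. The 2 cyclooxygenases lie at 1.23 and 2.61, and the AU-rich element binding proteins lie between the lines. The receptors *Tbxa2r* and *Ptgir* and the FP inhibitor *Ptgfrn*, grouped as other prostanoid receptors, lie below -0.5.

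The list of known inducers of *Ptgs2* transcription, which also holds inhibitors of the same pathways such as *Tnfaip3*, *Il1rn* and *Nfkbia*, had 3 of 20 measured genes called higher and 2 lower. The cytokine genes *Il1a*, *Il1b* and *Tnf* had 0 reads in both libraries. *Cebpb*, a transcription factor that acts on the *Ptgs2* promoter, went from 2.55 to 7.82 TPM (M = 1.62 [1.41, 1.83]), *Tnfaip3*, an NF-kB target and inhibitor, from 3.24 to 5.72 TPM (M = 0.82 [0.70, 0.94]) and *Fos*, an AP-1 subunit, from 14.6 to 23.4 TPM (M = 0.68 [0.60, 0.77]). *Il1rn*, the antagonist of the interleukin-1 receptor, was lower at 1.84 and 0.671 TPM (M = -1.45), and the immediate-early factor *Egr1* at 40.1 and 28.0 TPM (M = -0.52 [-0.57, -0.47]). *Egr1* was not called on the count scales, where 1 gene of the list was lower. *Cebpb* overlaps *Tmem189* in the annotation, whose M was -0.27. The most abundant of the list lay between the thresholds, the TNF receptor *Tnfrsf1a* at 301 and 237 TPM and the hypoxia factor *Hif1a* at 185 and 192 TPM.

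Genes known to respond to cAMP, the messenger of EP2 and EP4, had 4 of 12 called higher and 1 lower. Over all genes with A > 0, 5.73% were called higher and 11.4% lower. A response to cAMP was not tested. *Crem*, a cAMP-inducible transcription factor, stood at 12.4 and 23.2 TPM (M = 0.90 [0.81, 0.99]). *Dusp1*, a MAP kinase phosphatase, was at 42.9 and 69.2 TPM (M = 0.69), *Nr4a2* at 4.53 and 6.66 TPM (M = 0.56) and the phosphodiesterase *Pde3b* at 28.1 and 41.0 TPM (M = 0.54). The cAMP sensor *Rapgef3* was lower, at 9.85 and 5.07 TPM (M = -0.96). *Nr4a1* lay between the thresholds at 74.9 and 88.4 TPM. Signalling proteins downstream of the receptors were mostly flat, with 16 of 18 between the thresholds, *Rgs2* called higher (M = 0.62) and *Adcy9* lower (M = -0.51). The call of *Adcy9* was lost on the count scales, and both calls were lost with A > 2. *Gnas*, the Gs α subunit, was at 1555 and 1573 TPM, and *Prkar1a*, a regulatory subunit of protein kinase A, at 440 and 456 TPM.

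The lipoxygenase branch, which makes leukotrienes from the same fatty acid, had 1 of 6 measured genes called higher. This was *Mgst2*, a leukotriene C4 synthase, with 33 siCtrl and 170 si*Vgll3* reads (0.858 and 4.81 TPM, M = 2.49 [1.94, 3.07]). *Lta4h*, which makes leukotriene B4, was at 88.9 and 89.2 TPM, and the epoxide hydrolase *Ephx1* at 423 and 410 TPM. *Alox8*, *Alox12b*, *Alox15*, *Aloxe3*, *Ltc4s* and *Cysltr2* had 0 reads in both libraries. *Alox5* had 0 siCtrl and 4 si*Vgll3* reads, and *Alox5ap* had 31 and 56 reads with an A of -0.50.

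Markers of the cells the cultures could hold were read beside these values. Fewer cells of a type and less RNA per cell cannot be told apart in bulk RNA. All 9 myofibroblast markers were measured, and their TPM summed to 18701 with siCtrl and 14807 with si*Vgll3*, with *Tagln*, *Thy1* and *Cnn1* called higher and *Postn*, *Col1a1*, *Col1a2* and *Col3a1* lower. Of 10 leukocyte markers, *Ptprc* (CD45), *Adgre1*, *Itgam* and *Cd3e* had 0 reads in both libraries, 2 were called higher and 1 lower, and the list summed to 15.0 and 8.46 TPM. Markers of endothelial cells, which also make prostacyclin, summed to 27.2 and 22.8 TPM over 7 genes, against 299 and 297 TPM for *Ptgis*. *Tek* made up most of that sum, at 19.5 and 13.4 TPM (M = -0.54). *Pecam1* (M = 0.47), *Cdh5* (M = 0.50, not called) and *Kdr* (M = 0.97, A below 0) had an M above 0, and the median M of the 4 genes with A > 0 was 0.22. Smooth muscle and pericyte markers summed to 8.23 and 3.78 TPM over 5 genes. Of 7 cardiomyocyte markers, 5 (*Myh6*, *Actn2*, *Nppa*, *Myl2* and *Ryr2*) had 0 reads in both libraries, *Tnni3* had 0 and 10 reads, and the sums of 60.0 and 10.4 TPM were all *Tnnt2*. The 4 mesothelial markers moved apart, with *Msln* and *Krt19* higher, *Upk3b* and *Wt1* lower, and sums of 43.7 and 37.4 TPM. The part of any of these cells in the cyclooxygenase values was not tested.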

How the data were processed

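RNA was sequenced from 1 siCtrl and 1 si*Vgll3* culture. The authors used the TruSeq Stranded mRNA LT kit and a NovaSeq instrument. Trimmomatic, HISAT2 (to mm10) and StringTie followed, in versions not given in the sources used here. The authors deposited raw read counts per gene, which are whole numbers without normalization, for 24532 genes. They deposited TPM, scaled for length and depth, for 14158 of these genes.

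M, A and the calls were computed from TPM for 11754 genes with A > 0, with nothing added before the logarithm. Clopper-Pearson intervals (scipy 1.17.1) used the counts. The interval of a ratio of read ratios is a normal approximation on the log scale. Genes with A > 0 were covered by a median of 7361 reads, libraries summed. Positions came from RefSeq GRCm38.p6, the assembly of mm10, and 3′ UTRs and overlaps from GENCODE vM21, using the transcript paired with RefSeq. The list of 10 genes, the neighbouring lists and the markers were chosen with earlier results of these data known. Beside the 10 genes, those named were every gene of a pathway list past a threshold and its 2 most abundant genes, except results that are not reported here. Genes at 0 reads, *Tmem189*, *Ttc33*, *Slco4a1*, *Akr1b3*, *Ptger3*, *Ptgdr2*, *Nfkbia*, *Alox5*, *Alox5ap* and the endothelial markers given singly were added after their values were seen. The E-box was also added later. Alternatives were CPM, TMM (edgeR 4.0.16) and DESeq2 1.42.0 size factors, pseudocounts, filters, centring and thresholds. The interval was tested on simulated data that held counting error only, so that test does not cover variation between cultures.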

Additional observations from a re-analysis of the deposited data

How the results depend on the processing

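*Ptgs1* and *Ptgs2* were called higher under all 12 alternatives, which were CPM, TMM scaling, DESeq2 size factors, 0.1 or 1 TPM added, A as a mean of log2 values, no filter on A, A > 2, at least 10 reads, centring, a threshold of 1 and the whole counting interval beyond 0.5. Without a filter on A, *Ptger2* (11 and 14 reads) joined them. M ranged from 2.54 to 2.66 for *Ptgs2* and from 1.19 to 1.28 for *Ptgs1* over the settings that change it. The call of *Ptger1* was less firm. The number of genes called lower was 1 in the main setting and 0 with 1 TPM added, with A > 2, with a threshold of 1 and when the whole interval had to lie below -0.5. The first of these moved its M to -0.33, since the gene is near 1 TPM, and the others raise the bar that it must pass. The median M of the list stayed within 0.06 to 0.14. As raw counts, the *Ptgs2* share of the cyclooxygenases was 55.8% in siCtrl and 76.7% in si*Vgll3*, since counts are not scaled for length. On the 3 count scales (CPM, TMM and DESeq2), *Ptgfrn*, *Egr1* and *Adcy9* lost their calls, *Mgst2* was outside A > 0, and the cAMP-responsive list had 2 genes lower in place of 1. With A > 2, the calls of *Hpgd*, *Mgst2*, *Il1rn*, *Rgs2* and *Adcy9* were lost. No paired analysis was possible because the cultures are single libraries. Of the 10 genes, depth limits *Ptger1*, *Ptger2* and *Ptgfr* the most.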
